A study of Mus musculus with 2 samples.

Results

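The miR-101 family of the mouse is described here as it was read in J1 cells, an established embryonic stem cell line from strain 129S4/SvJae. Its members are the products of 3 hairpin genes, Mir101b, Mir101a and Mir101c, of 1174 annotated miRNA hairpin genes whose names begin with Mir. They were chosen by the length of the most abundant miR-101b tag in the DMSO list, 19 nt, so that length describes the choice and is not a result. A tag belongs to a member if it matches the hairpin exactly, or does so after 1 to 3 untemplated A or T at its 3′ end are removed. Small RNAs were sequenced after 6 h with 1 µM SC1 (pluripotin, known to inhibit ERK1 and RasGAP) or after 6 h with an equal volume of DMSO. Both cultures were on gelatin in medium with 1000 U/mL LIF, a cytokine that keeps these cells undifferentiated. With 1 deposited list per condition there is no replicate error, and the 95% exact intervals given cover counting error only. The reads carry no molecular identifiers, so repeated reads may stem from 1 molecule. A count of 0 was given a limit of 3 reads, a one-sided limit that is below the upper bound of the intervals.

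The lists of tags cover different lengths. The SC1 list held 1275599 reads of 3 to 17 nt and the DMSO list 18870345 reads of 18 to 44 nt. They are therefore described separately, SC1 tags of 15 to 17 nt (1054495 reads) and DMSO tags of 18 to 26 nt (16614432 reads), and no level is set against the other. Whether the lists are length classes of 1 library or come from 2 libraries cannot be told apart from the files, so SC1 and DMSO name the deposited lists below. Outside these windows, 0 SC1 reads of 12 to 14 nt and 0 DMSO reads of 27 nt or more matched a miR-101 hairpin exactly. Of the reads in these windows, 5.07% of SC1 and 14.5% of DMSO matched a miRNA hairpin. With each tag reversed, 0 reads in either list matched a miR-101 hairpin. The label of the cells was checked against marker miRNAs. Hairpins of the miR-290-295 and miR-302 clusters, typical of embryonic stem cells, held 50.4% of the SC1 and 27.3% of the DMSO hairpin reads. Fibroblast markers held 0.0767% in SC1 and 0.154% in DMSO. The liver marker held 0.00187% in SC1 and 0.00249% in DMSO, and blood markers 0% in SC1 and 0.000872% in DMSO.

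A miRNA is cut from its hairpin by Drosha and Dicer and loaded into an Argonaute protein, and bases 2 to 8 from its 5′ end, the seed, pair with target mRNAs. A cut that moves by 1 base at the 5′ end gives another seed. Changes at the 3′ end leave the seed alone, and enzymes known to add A or U there make tails that the genome does not encode. miR-101 is best known for repressing Ezh2, the histone methyltransferase of Polycomb repressive complexes, which helps to silence developmental genes in stem cells. The 3p arm of miR-101 is its usual guide strand.

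The annotated mature forms show what is to be compared, and are given from RefSeq for GRCm38.p6 with the seed in capitals.
miR-101b-3p: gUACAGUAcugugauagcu
miR-101a-3p: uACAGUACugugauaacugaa
miR-101c: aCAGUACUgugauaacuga
miR-101b-5p: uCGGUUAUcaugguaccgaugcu
miR-101a-5p: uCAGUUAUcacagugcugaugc
The annotated 3p forms start at 3 successive bases, so that each carries another seed, although the sequence beneath is nearly the same. The hairpins follow, with the annotated mature forms in capitals. Those of Mir101b and Mir101a are from RefSeq, and that of Mir101c is the GENCODE M21 transcript.
Mir101b hairpin: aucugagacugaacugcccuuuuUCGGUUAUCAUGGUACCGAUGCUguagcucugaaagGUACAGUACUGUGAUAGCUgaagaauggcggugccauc
Mir101a hairpin: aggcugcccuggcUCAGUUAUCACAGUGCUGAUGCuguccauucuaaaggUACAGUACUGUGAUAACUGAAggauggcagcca
Mir101c hairpin: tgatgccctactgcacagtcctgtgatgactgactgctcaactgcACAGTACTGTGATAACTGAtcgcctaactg
Mir101b lies at chr19:29135279-29135375 on the plus strand of GRCm38, in an intron of the protein-coding gene Rcl1 and in the same direction. Mir101a lies at chr4:101346945-101347027 on the minus strand, in an exon of the lincRNA gene E130102H24Rik. Mir101c lies at chr9:3038669-3038743 on the minus strand and overlaps no other annotated gene. Over 23 bases of the 3p arm, from the first G of the annotated miR-101b-3p, Mir101b and Mir101a share 22. The other base is A17G, with the base of Mir101a first and positions counted from 1 at that G.

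That G is called the G start below (base 60 of the Mir101b hairpin and base 50 of the Mir101a hairpin), and the next bases are the U start and the A start. The G start gives the seed UACAGUA, the U start ACAGUAC and the A start CAGUACU. The annotated 3′ end of miR-101b-3p, after CU, is called the short end. The end 3 nt downstream of it, after GAA and also the annotated end of miR-101a-3p, is called the long end.

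In the SC1 list, 77 reads in 9 tags of 15 to 17 nt came from the 3p arms of miR-101. miR-101b-3p had 68.5 of them (interval 52.8 to 86.2) and miR-101a-3p 8.5 (interval 3.45 to 15.8), where 1 read of 16 nt that fits both was split equally. These intervals are for the counts rounded to whole reads, 68 and 8. These tags carried 0 untemplated A or T. The tags with the most reads show that most of them did not begin at the G start, and their seeds are in capitals.
miR-101b-3p, 28 reads: aCAGTACTgtgatagct
miR-101b-3p, 24 reads: tACAGTACtgtgatagc
miR-101b-3p, 7 reads: gTACAGTActgtgatag
miR-101b-3p, 5 reads: cAGTACTGtgatagct
miR-101a-3p, 7 reads: tACAGTACtgtgataac
Over both members, the G start held 11.7% of these reads (interval 5.49 to 21.03), the U start 44.2% (interval 32.8 to 55.9) and the A start 37.7% (interval 26.9 to 49.4). Of the miR-101b-3p reads, 33 (48.2%, interval 36.2 to 61.0) stopped at the short end, and they began at the A start or 1 base after it. From the G and U starts the short end lies at 19 and 18 nt, beyond the longest SC1 tags, so the starts seen here depend on the length class of the list. The arms that had 0 SC1 reads were both 5p arms, and both arms of Mir101c.

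**Figure D1:**
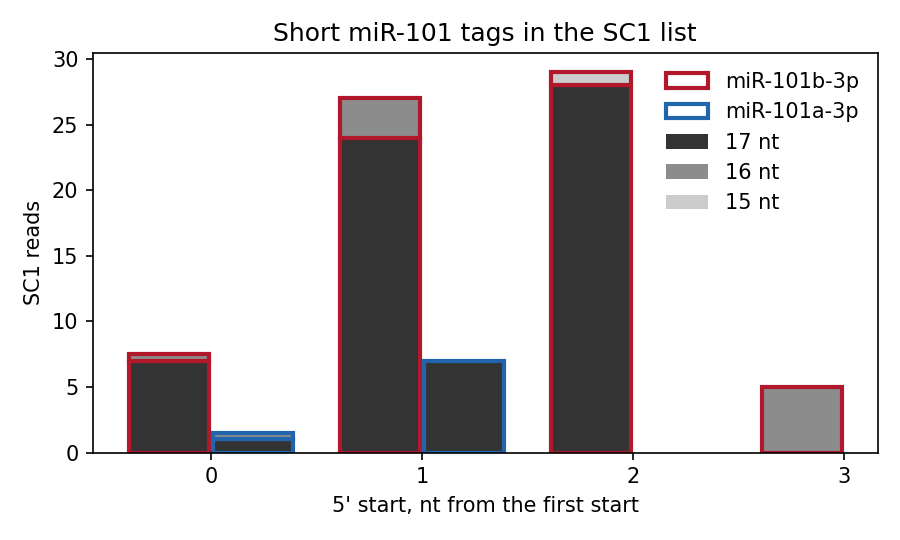
Reads of 15 to 17 nt in the SC1 list (vertical axis) by their 5′ start in nt from the G start, for miR-101b-3p (red outline) and miR-101a-3p (blue outline), with tag length as shade. miR-101b-3p peaks at the A start with 29 reads, next to 27 at the U start, while miR-101a-3p has 7 reads at the U start and 1.5 at the G start.

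In the DMSO list both members were abundant, and nearly all of their reads came from the 3p arm. miR-101b-3p had 51868 reads, or 21531 reads in each 1000000 reads that matched any miRNA hairpin (RPM, interval 21346 to 21717). miR-101a-3p had 25186 reads, or 10455 RPM (interval 10326 to 10585), so that miR-101b-3p had 2.06 times as many. Among 141 arms with 1000 reads or more, counted once where genes share their most abundant tag, they ranked 13 and 25 by reads.

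Abundant tags show the short form of miR-101b-3p and the longer one of miR-101a-3p, again with seeds in capitals. They lead each member by reads, but the 20 nt miR-101b-3p tag from the G start (4773 reads) is not printed.
miR-101b-3p, 19 nt, 19952 reads: gTACAGTActgtgatagct
miR-101b-3p, 22 nt, 6487 reads: gTACAGTActgtgatagctgaa
miR-101b-3p, 18 nt, 5173 reads: tACAGTACtgtgatagct
miR-101b-3p, 22 nt, 3888 reads: tACAGTACtgtgatagctgaag
miR-101a-3p, 22 nt, 9505 reads: gTACAGTActgtgataactgaa
miR-101a-3p, 21 nt, 4383 reads: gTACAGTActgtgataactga
miR-101a-3p, 19 nt, 3253 reads: gTACAGTActgtgataact
miR-101a-3p, 21 nt, 3247 reads: tACAGTACtgtgataactgaa
The most abundant miR-101b-3p tag was its annotated mature form of 19 nt. The most abundant miR-101a-3p tag was 22 nt long, so the short form that chose the family did not lead for miR-101a. The annotated miR-101a-3p, which begins 1 base later, had 3247 reads and ranked behind 3 tags from the G start.

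Both members used the G start most, and by reads miR-101b-3p had more of the later starts. At the G start were 68.1% of the miR-101b-3p reads (interval 67.7 to 68.5) and 77.4% of the miR-101a-3p reads (interval 76.9 to 77.9). The U start held 30.5% of miR-101b-3p (interval 30.1 to 30.9) and 22.6% of miR-101a-3p (interval 22.04 to 23.1). These intervals do not overlap, but they cover counting error only. By distinct tags, however, the U start held 35.0% of miR-101b-3p and 39.2% of miR-101a-3p, so the order turned. Distinct tags, 80 in miR-101b-3p and 51 in miR-101a-3p, give a rare tag the weight of an abundant one. At the A start were 692 reads of miR-101b-3p (1.33%, interval 1.24 to 1.44) but 10.5 reads of miR-101a-3p (0.0417%). From the A start the short end lies at 17 nt, below the shortest tags of the list, so reads of the A start that stop there are not in these counts. Over both members, 54830 reads (71.2%) therefore carried the seed UACAGUA of the annotated miR-101b-3p. A further 21479 reads (27.9%) carried ACAGUAC, the annotated seed of miR-101a-3p, and 702.5 (0.912%) carried CAGUACU, the annotated seed of miR-101c. The seeds thus overlapped between the members, and the annotated seed of miR-101a-3p was in the minority of its own reads. Their starts were mixed compared with other miRNAs. Over the 141 arms the median share of reads at the main start was 98.1%, and 13 arms lay below miR-101b-3p and 18 below miR-101a-3p.

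The length ladder from the G start had local peaks at 19 and 22 nt in both members, in opposite order. In miR-101a-3p the share at 21 nt was also larger than that at 19 nt. Lengths are those of the templated part, with tails removed. For miR-101b-3p, 56.5% of the 35337 reads from the G start had 19 nt (interval 56.0 to 57.1), 13.5% had 20 nt, 8.76% had 21 nt and 20.6% had 22 nt (interval 20.2 to 21.01). For miR-101a-3p, 16.8% of the 19493 reads had 19 nt (interval 16.2 to 17.3), 7.23% had 20 nt, 22.6% had 21 nt and 53.3% had 22 nt (interval 52.6 to 54.0). At 18 nt were 0.475% of miR-101b-3p and 0.0718% of miR-101a-3p, and at 23 nt 0.0906% of miR-101b-3p and 0.0462% of miR-101a-3p, so both ladders dropped off sharply outside 19 to 22 nt. By distinct tags, where rare tailed tags count as much as abundant ones, the most frequent length was 22 nt for miR-101b-3p and 19 nt for miR-101a-3p. The tailed tags at these lengths held 786 of 7273 reads in miR-101b-3p and 13 of 3266 in miR-101a-3p.

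From the U start the short and the long end lie at lengths 1 nt shorter. For miR-101b-3p, 32.8% of the 15799 reads had 18 nt (interval 32.1 to 33.6), the short end, and 20.7% had 21 nt, the long end. The largest other class was 22 nt with 27.1% (interval 26.4 to 27.8), which ends 1 base beyond the long end. For miR-101a-3p, 8.31% of the 5680 reads had 18 nt (interval 7.60 to 9.06), 69.6% had 21 nt (interval 68.4 to 70.8) and 5.23% had 22 nt. Since 18 nt is the shortest length of the list, forms from the U start that stop before the short end could not be seen in it.

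**Figure D2:**
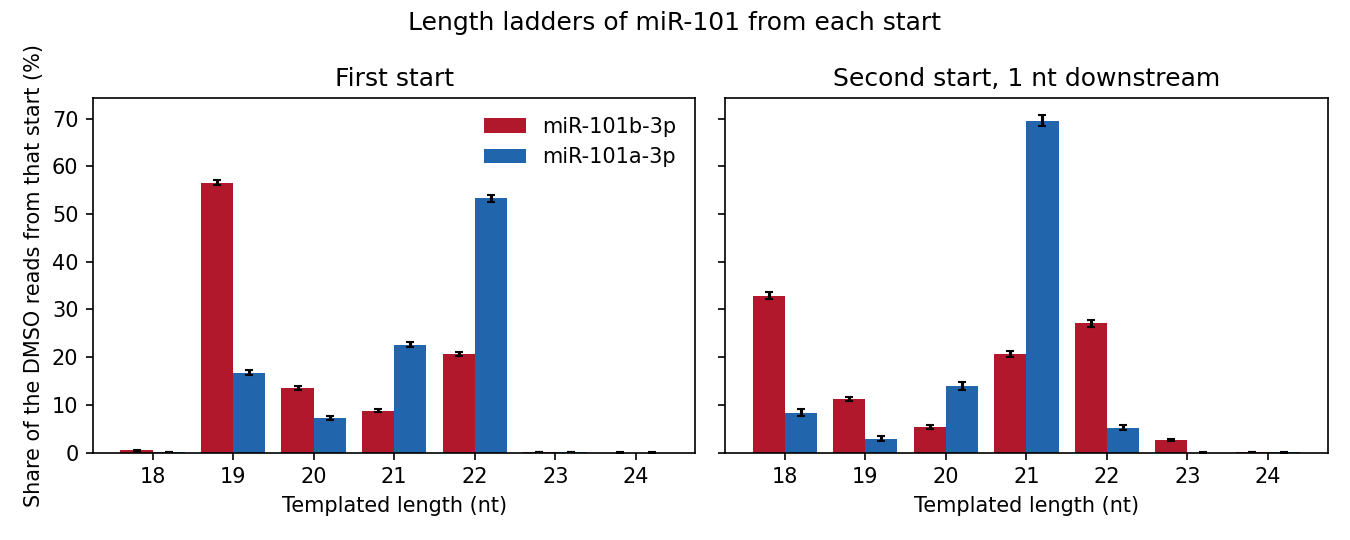
Share of the DMSO reads from a start (vertical axis, percent) at each templated length in nt, for miR-101b-3p (red) and miR-101a-3p (blue), with 95% exact intervals. From the first start, the G start, miR-101b-3p peaks at 19 nt with 56.5% and miR-101a-3p at 22 nt with 53.3%, and from the second start, the U start, miR-101a-3p peaks at 21 nt with 69.6% and miR-101b-3p at 18 nt with 32.8% and at 22 nt with 27.1%.

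Read by 3′ end instead of length, the short end took 25166 of the miR-101b-3p reads (48.5%, interval 48.1 to 48.95) and 3738 of the miR-101a-3p reads (14.8%, interval 14.4 to 15.3). The long end took 20.8% of miR-101b-3p (interval 20.4 to 21.1) and 57.0% of miR-101a-3p (interval 56.3 to 57.6). The ends 1 and 2 nt beyond the short end held 12.7% and 7.67% of miR-101b-3p, and 6.26% and 20.6% of miR-101a-3p. The end 4 nt beyond it held 8.75% of miR-101b-3p and 1.22% of miR-101a-3p. The short end was thus reached from both the G and the U start, with a smaller share from the U start. In miR-101b-3p the share was 56.5% from the G start and 32.8% from the U start. In miR-101a-3p it was 16.8% from the G start and 8.31% from the U start. By distinct tags it was 13.8% of miR-101b-3p and 15.7% of miR-101a-3p, the other order.

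Reads of the members are told apart by the base at position 17, and a miscalled base there would move a read between them. Exact tags from the G and U starts that covered this base and at least 1 more had G in 48421 reads and A in 23485 reads. They had C in 5 and T in 7, together 0.0167% of 71918 (interval 0.00862 to 0.0291). A miscall between A and G looks like the other member, so its rate at this base cannot be read from these counts. At the other positions of the 19 nt miR-101b-3p tag, tags with 1 other base came to 0.01% to 0.105% of its reads, with the highest at position 1. For the 22 nt miR-101a-3p tag they came to 0% to 0.494%, with the highest at the last position. Of the 47 reads there, 25 had T and are also counted below as a tail of 1 T on the 21 nt form. Among tags of 19 nt from the G start, 19952 reads had G, 3253 had A, 1 had C and 1 had T. An A edited to a base read as G would be counted for Mir101b, and this was not tested.

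Tails of A or T were found on 5.05% of the miR-101b-3p reads (interval 4.86 to 5.24) and 6.72% of the miR-101a-3p reads (interval 6.42 to 7.04). The 141 arms had a median of 6.55% and quartiles of 3.13% and 15.0%, so neither member stood out in this measure. By distinct tags the order of the members turned, with 68.8% of miR-101b-3p and 66.7% of miR-101a-3p tailed. Of the tailed miR-101b-3p reads, 2329 had 1 nt, 260 had 2 nt and 31 had 3 nt. Of the tailed miR-101a-3p reads, 1498 had 1 nt, 165 had 2 nt and 30 had 3 nt. Tails of 4 nt, which were not counted, had 6 reads in miR-101b-3p and 0 in miR-101a-3p. Untemplated C or G, counted in the same way, came to 74 reads of miR-101b-3p and 139 of miR-101a-3p. A tail that has the templated base cannot be seen, so an A added 1 or 2 nt beyond the short end is counted as template.

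Most tailed reads of both members lay at the long end, and tailing was nearly missing at the short end. Both ends are followed by a templated G, so that an A or T added directly at either can be seen. The bases just before the long end are templated A. A tail of A that began before the long end and ran past it is therefore counted there. At the long end 16.1% of the miR-101b-3p reads (interval 15.4 to 16.8) and 11.1% of the miR-101a-3p reads (interval 10.6 to 11.6) had a tail. At the short end it was 0.163% of miR-101b-3p (41 of 25166, interval 0.117 to 0.221) and 0.348% of miR-101a-3p (13 of 3738, interval 0.185 to 0.594). Some of these few tailed short tags have the sequence of a longer form with another base in place of the templated G, and their origin was not tested. Tails at the long end were made only of A in 1504 of 1730 reads of miR-101b-3p (86.9%) and in 1404 of 1589 reads of miR-101a-3p (88.4%). These counts include any tails of A that began before that end. They were made only of T in 179 reads of each member. At the end 1 nt beyond the long end, 12.5% of the miR-101b-3p reads had a tail. An A there would be templated in Mir101b, and 564 of the 568 tailed reads had only T. At the same end 13.3% of the miR-101a-3p reads had a tail (41 of 308, interval 9.72 to 17.6), made only of A in 30. The end 1 nt before the long end differed between the members. There 6.38% of miR-101b-3p (254 of 3980 reads) and 0.654% of miR-101a-3p (34 of 5200.5 reads) had a tail, although the next templated base is A in both.

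The start and the tail moved together at the long end. Among miR-101b-3p reads that reached it, 10.8% were tailed from the G start (interval 10.1 to 11.5), 24.02% from the U start (interval 22.6 to 25.5) and 67.2% from the A start (156 of 232 reads, interval 60.8 to 73.2). Among miR-101a-3p reads it was 8.46% from the G start (interval 7.94 to 9.02), 17.8% from the U start (interval 16.7 to 19.1) and 5 of 9 reads from the A start. In both members the later start thus had the larger tailed share between the G and U starts at this end. At the end 1 nt before it, miR-101b-3p had the other order, with 2880 of 3095 reads untailed from the G start and 817 of 851 from the U start. There miR-101a-3p kept the order, with 4383 of 4408 reads untailed from the G start and 783 of 792 from the U start. With tails included, 59.7% of the miR-101b-3p reads from the A start were 22 nt long (413 of 692, interval 55.9 to 63.4), in a list that cannot hold the short end from this start.

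**Figure D3:**
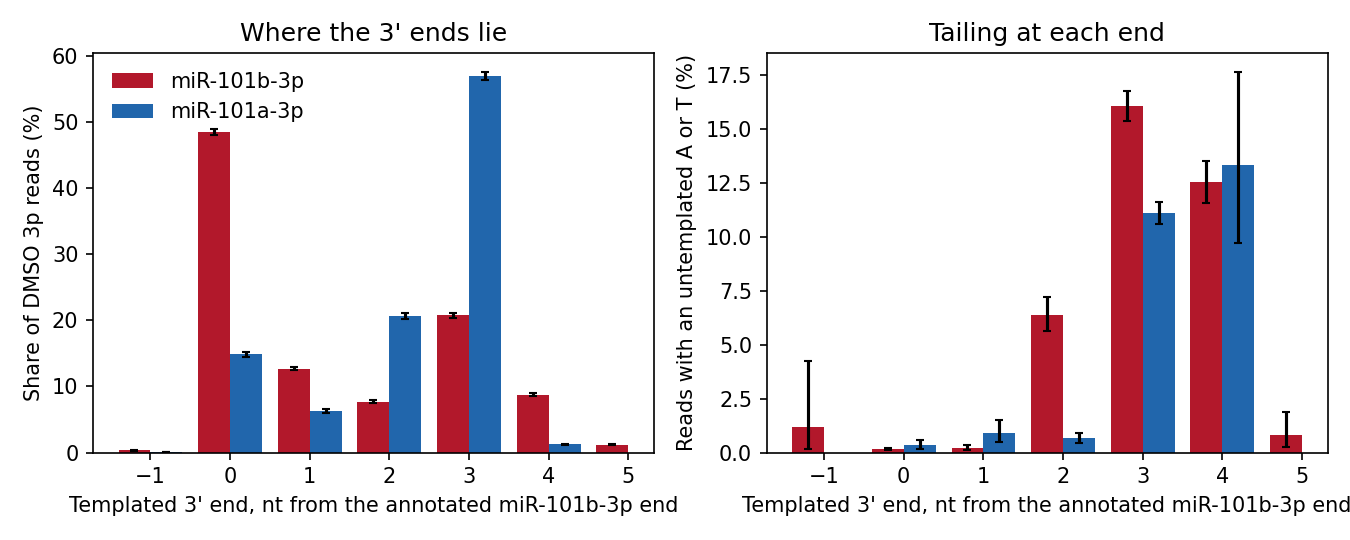
Left, share of the DMSO 3p reads (percent) by templated 3′ end, in nt from the short end (0), for miR-101b-3p (red) and miR-101a-3p (blue). Right, percent of the reads at each end with an untemplated A or T, for ends with 100 reads or more, with 95% exact intervals in both panels. miR-101b-3p peaks at 0 with 48.5% and miR-101a-3p at 3 with 57.0%, while tailing in miR-101b-3p is 0.163% at 0 and 16.1% at 3, and in miR-101a-3p 0.348% at 0 and 11.1% at 3.

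The 5p arms were close to the limit of detection. Mir101b had 4 DMSO reads whose centre lay left of the hairpin midpoint. Of these, 1 began at the annotated start of miR-101b-5p, 2 began at base 2 of the hairpin, and 1 ran from base 34 across the midpoint. A further 4 reads that began at base 46 had their centre right of it and were counted as 3p. Mir101a had 1 such read, and it began at the annotated start of miR-101a-5p. The ratio of 3p to 5p reads was 12967 for Mir101b (interval 5064 to 47591) and 25186 for Mir101a (interval 4520 to 994794), where the intervals come from the count of the 5p reads and the ratios depend on this rule. At this depth the arm ratios of the members could not be told apart. The annotated tags of miR-101b-5p and miR-101a-5p themselves had 0 reads.

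Mir101c had hardly any reads of its own. Its annotated mature form, from the A start, had 0 DMSO reads. The 7 reads counted for it included 6 in tags that fit no other hairpin, 5 of 22 nt and 1 of 21 nt, and 1 read after equal splitting with Mir101a. Both of those tags differ from abundant miR-101a-3p tags by T2C, counted from 1 at the G start, and had 0.0526% and 0.0228% of their reads. Their origin was not tested.

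Short most frequent forms were uncommon among the abundant annotated miRNA arms of the DMSO list. Tags of these arms that also match other transcripts were not left out. Of the 141 arms, 62 were most frequent at 22 nt, 31 at 23 nt and 18 at 21 nt from their main start. At 18 or 19 nt were 6 arms (4.26%), a count that includes miR-101b-3p, which was chosen for its length. Those at 19 nt were miR-101b-3p, miR-323-3p and miR-6236-5p, and those at 18 nt, named after their values were seen, were miR-3473b-3p, miR-296-3p and miR-27a-3p. The ladder of miR-101b-3p was most like that of miR-323-3p, of the Dlk1-Dio3 locus, by the total variation distance over shares at 18 to 26 nt, where 0 is the same ladder and 1 no overlap. The distance was 0.223 to miR-323-3p, 0.369 to miR-6236-5p, 0.435 to miR-382-5p, 0.465 to miR-101a-3p and 0.483 to miR-6240-3p. The nearest, miR-323-3p, had 60.3% of its main start reads at 19 nt and 0.452% at 22 nt, where miR-101b-3p had its smaller peak.

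Lower tailing of short forms was also seen in most other arms. Of 52 other arms with 100 or more reads both at 18 to 19 nt and at 21 to 23 nt, 41 (78.8%) had the smaller tailed share at 18 to 19 nt. The medians over these other arms were 2.20% at 18 to 19 nt and 7.57% at 21 to 23 nt. For miR-101b-3p the shares were 0.191% at 18 to 19 nt and 12.5% at 21 to 23 nt, and for miR-101a-3p 0.357% at 18 to 19 nt and 8.66% at 21 to 23 nt. The members thus had the direction of most other arms and lay below the median at the short lengths, a description over arms read from 1 list.

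**Figure D4:**
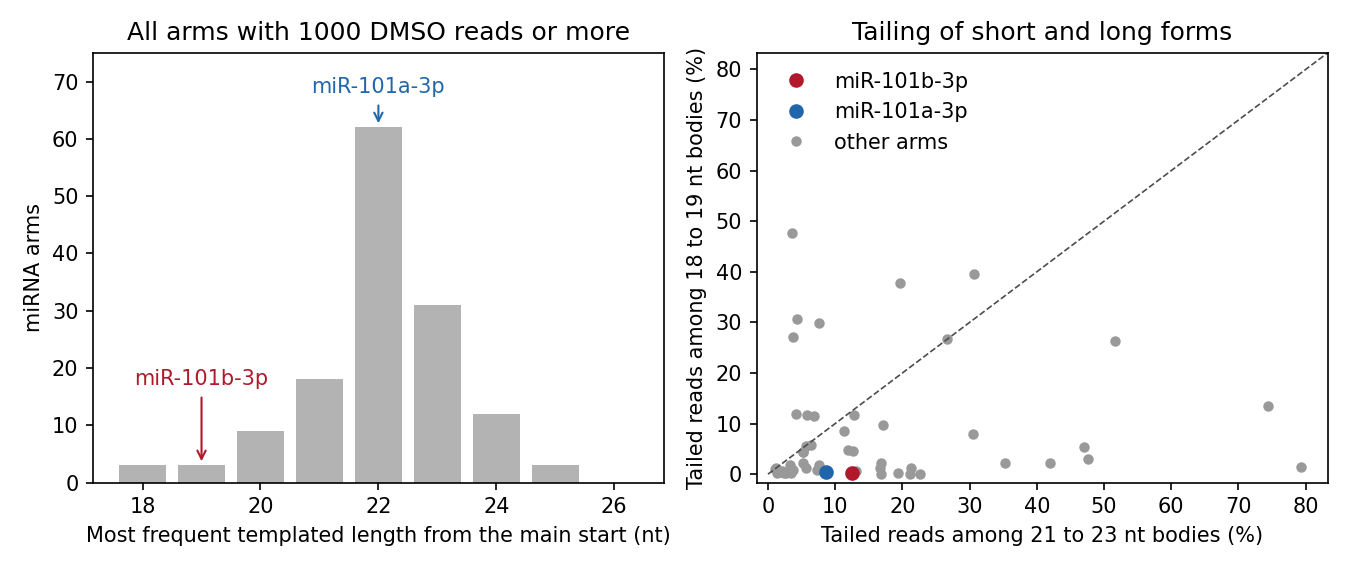
Left, number of miRNA arms with 1000 DMSO reads or more by the most frequent templated length (nt) from their main start, with miR-101b-3p at 19 nt and miR-101a-3p at 22 nt marked. Right, percent of tailed reads at 18 to 19 nt against that at 21 to 23 nt for miR-101b-3p (red), miR-101a-3p (blue) and 52 other arms (grey), of which 41 lie, like both members, below the dashed line of equal shares.

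Of the other miRNAs with a seed that overlaps that of miR-101, miR-144-3p was scarce and miR-199-3p was not. miR-144-3p, known from erythroid cells, has a seed that differs from that of the annotated miR-101a-3p in its last base. It had 0 SC1 reads and 6 DMSO reads. Its most abundant DMSO tag, shown for its seed, had 3 reads.
miR-144-3p: tACAGTATagatgatgtacta
miR-451a-5p, from the same primary transcript, had 0 SC1 reads and 7 DMSO reads. miR-199-3p, which the hairpins Mir199a-1, Mir199a-2 and Mir199b share, holds the letters ACAGUA at its very start. It thus has the register of the A start, not of the G or U start, although its seed is not CAGUACU. It had 1880 DMSO reads, of which 7.77% were tailed, and its most abundant tag of 22 nt had 691.
miR-199-3p: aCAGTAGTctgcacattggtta
Together these 5 hairpins held 0.00374% of the SC1 and 0.0795% of the DMSO hairpin reads. The SC1 share was 2 reads of a 17 nt tag of Mir199a-1 that is not part of the miR-199-3p tag shown. miR-199 is also among the fibroblast markers counted above, and miR-144 and miR-451a among the blood markers.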

How the data were processed

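Small RNA of J1 cells was sequenced after SC1 and after DMSO, with 1 deposited list each. For each, the authors deposited raw counts of reads for distinct tags, with the length in nt; the counts were not normalized. A last DMSO line holding only a total was left out. Per the submitters' processing notes the authors used build mm9. How adapters were trimmed and lengths filtered is not given in the sources used here. Coordinates are those of GRCm38. Tags were matched in sense to the GENCODE M21 hairpins of miRNA genes whose names begin with Mir. The match was exact or came after removal of the fewest A or T needed (1 to 3), with 15 nt or more left. Tags that fit several hairpins were split equally. A tag belongs to the arm on whose side of the hairpin midpoint its centre lies. RPM is computed here from reads in each 1000000 DMSO hairpin reads. Intervals are exact 95% binomial (Clopper-Pearson) or, for counts, Poisson. Split counts were rounded to whole reads for the intervals. No test was possible. The matching was tested on simulated reads. Named are all miR-101 arms, the related miRNAs and the 5 arms nearest in length ladder, and 3 arms most frequent at 18 nt that were chosen after their values were seen. The members and lists were chosen with earlier results of these data known. Alternatives were other count minimums, tail rules and treatment of shared tags. Python 3.11.15, numpy 2.4.6 and scipy 1.17.1 were used.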

Additional observations from a re-analysis of the deposited data

How the results depend on the processing

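No paired analysis was possible because there was a single list for each condition, and none could be left out. Of 89 alternative values, 55 stayed within counting error of the reported value; the cause of the other changes was not tested unless the setting itself gives it. With exact matches only, tailed tags drop out by construction: miR-101b-3p then had 49248 reads, 58.2% of G-start reads at 19 nt and 29.6% of reads at the U start, and miR-101a-3p 23493 reads, 51.2% at 22 nt and 20.98% at the U start. By full tag length the miR-101a-3p share at 22 nt was 48.9%. Over all starts within 2 nt the shares were 42.0% (miR-101b-3p, 19 nt) and 42.4% (miR-101a-3p, 22 nt). By distinct tags, which give a rare tag the weight of an abundant one, miR-101b-3p had 20.8% at 19 nt, a most frequent length of 22 nt, 35.0% at the U start and 68.8% tailed, and miR-101a-3p 21.7% at 22 nt, a most frequent length of 19 nt, 39.2% at the U start and 66.7% tailed. With exactly 1 nt removed, 4.52% of miR-101b-3p and 5.99% of miR-101a-3p were tailed, and with C or G removed in place of A or T, 0.150% of miR-101b-3p and 0.588% of miR-101a-3p. Settings added after seeing the data concern the short end. There miR-101b-3p had 51.0% with exact matches only, 13.8% by distinct tags, 56.5% from the G start and 32.8% from the U start, and miR-101a-3p 15.9% with exact matches only, 15.7% by distinct tags, 16.8% from the G start and 8.31% from the U start. By distinct tags the order of the members thus turned at the short end, at the U start, in the tailed share and in the most frequent length. Leaving out tags that match other transcripts was not run for miR-101a, as E130102H24Rik holds its hairpin. Counts of 7 reads or fewer (both 5p arms, Mir101c) fell to 0 with a minimum of 10 reads in a tag. The read depth limits the 5p arms, Mir101c and the SC1 tags.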
